A study of Mus musculus with 3 samples.

Results

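The 46 genes described here are 23 coagulation and fibrinolysis genes and 23 complement genes, taken from a list of names. No rule on measured values picked them, but earlier results of these data were known when the list was made. Of these, 45 had a row in each of the 3 deposited expression tables, out of 36809 gene identifiers that the tables shared, and Klkb1, which encodes plasma prekallikrein, had none and was not analysed here. The study measured polyadenylated RNA of liver, whole testis and brain from male C57BL/6 mice aged 11 weeks, with 1 strand-specific library per tissue. The labels name no genetic change or treatment, and they do not say how many animals gave RNA or whether the organs came from the same animal. The series' title places the libraries in a study of how complex the testis transcriptome is and which cells account for that. For the genes described here, the design asks how a liver-centred set of secreted proteins was expressed in a germ cell organ and in the brain.

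Coagulation is a relay of serine protease zymogens, most of them made by hepatocytes and secreted into plasma, in which each activated factor cleaves the next until thrombin turns fibrinogen into fibrin. Tissue factor, a membrane protein kept away from blood, starts the relay, while plasminogen and its activators later dissolve the clot. Complement is a parallel cascade of plasma proteases: the classical, lectin and alternative routes meet at C3, and the terminal components assemble a pore in the target membrane, while soluble and membrane-bound regulators protect host cells.

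Levels are given as FPKM, fragments scaled to the length of the transcript and to the number of mapped fragments, with the authors' lower and upper confidence bounds in parentheses. These bounds were taken as 95% bounds and cover the estimate within 1 library only, so that no difference has a replicate check and no test was run. Differences are on the log2(FPKM + 1) scale, which understates the difference of genes with low levels. A call of higher or lower needed bounds that did not meet and a difference of 4-fold or more, that is 2 on this scale. The fragments implied by the bounds over all genes came to 86.4 M in liver, 40.9 M in testis and 31.8 M in brain. Fewer than 10 fragments were implied for 3 members in liver, 14 in testis and 24 in brain, so low levels in testis and brain were weakly measured. Implied fragments describe the width of the bounds and need not equal read counts. In liver, F2 at 493 FPKM implied 2391 fragments, while F9 at 42.3 FPKM implied 17422. All estimates were marked OK by the authors for 35 members. The tissue labels held against marker genes: the hepatocyte gene Alb stood at 20975 FPKM in liver, 3.79 FPKM in testis and 3.73 FPKM in brain, and the neuronal gene Snap25 at 0.0350 FPKM in liver, 0.0864 FPKM in testis and 933 FPKM in brain. The spermatid gene Prm2 stood at 0.150 FPKM in liver, 12924 FPKM in testis and 9.56 FPKM in brain. In whole organs, fewer cells of a type and less RNA per cell cannot be told apart.

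The members were mostly liver genes. Of the 45, 32 were called higher in liver than in testis and 1, Cfd, lower, and 32 were called higher in liver than in brain and 2, F3 and Plat, lower. The same 32 genes were higher against both tissues. With a pseudocount of 0.1 in place of 1, 3 members were called lower in liver than in testis, Cfd, Vwf and Plat. With the pseudocount of 1, the 32 members called higher in liver were 71.1% of the members. The same rule called 3.82% of all genes and 5.96% of protein-coding genes higher in liver than in testis, and 2.79% and 4.55% higher in liver than in brain. In the other direction it called 15.2% of all genes and 20.1% of protein-coding genes lower in liver than in testis, and 9.15% and 13.6% lower in liver than in brain, against 2.22% and 4.44% of the members. The median difference of the members was 5.43 for liver minus testis and 5.85 for liver minus brain, beside -0.02 and -0.01 over all genes and -0.23 and -0.30 over protein-coding genes. The comparisons share the liver library, so they are not independent of each other. Dividing by the median ratio of the libraries shifted the median gene by 0.46 for liver minus testis, 0.44 for liver minus brain and 0.01 for testis minus brain, and scaling to the FPKM sum over loci of 200 bp or more shifted it by -0.07, -0.54 and -0.36.

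**Figure D1:**
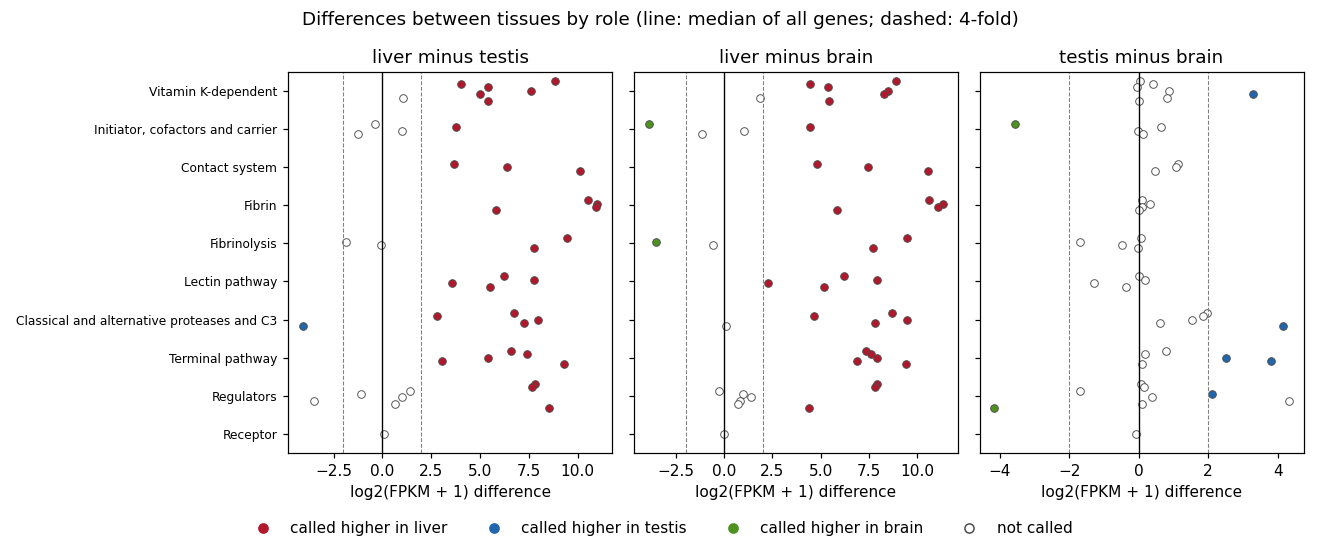
Each point is a member, placed by its log2(FPKM + 1) difference between a pair of tissues (x axis) and its role (y axis). Filled points were called at 4-fold or more with the bounds apart, the solid line is the median of all genes and the dashed lines mark 4-fold. All members of the contact, fibrin, lectin and terminal roles lie right of the dashed line in both liver panels, while the initiator group and the regulators are spread on both sides of 0.

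Between the coagulation and the complement members the count was alike, with 16 of 22 and 16 of 23 higher in liver against each other tissue. The median difference for liver minus testis was 5.42 for coagulation and 5.53 for complement members, and for liver minus brain it was 5.64 and 6.21. Detection at 1 FPKM or more was reached by 40 members in liver, 19 in testis and 13 in brain, that is 88.9%, 42.2% and 28.9% of them, against 30.3%, 42.9% and 40.3% of all genes. In liver 23 members stood at 100 FPKM or more and the 6 most abundant, Fgb, Fgg, Fga, C1s1, Kng1 and Clu, stood at 1159 FPKM or more. The liver was the tissue of the highest level for 37 members, or 82.2%, 36 of them with the bounds apart from both others, beside 13.6% of the genes listed above 0 in any library. Testis was highest for 4 members, Vwf, Cfd, Cd55 and Cd59b, and brain for 4, F3, Plat, Plau and Cfp, which is 8.89% each beside 47.6% and 38.8% of those genes. With the bounds apart from both other tissues, the testis count was 2, Cfd and Cd55, since the bounds of Vwf overlapped in testis and brain and the Cd59b estimate in testis was marked as failed. A gene was taken as restricted if it reached 5 FPKM in 1 tissue while staying below 0.5 FPKM in the other tissues. By that rule 15 members were restricted to liver, 1 to testis (Cfd) and 0 to brain, or 33.3%, 2.22% and 0% of the members, against 1%, 5.53% and 2.31% of all genes. The rule used the listed values without their bounds or status. It thus counted Masp2 as restricted to liver, though its upper bounds were 5.01 FPKM in testis and 6.76 FPKM in brain. With limits of 1 and 0.1 FPKM, 6 members were restricted to liver.

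**Figure D2:**
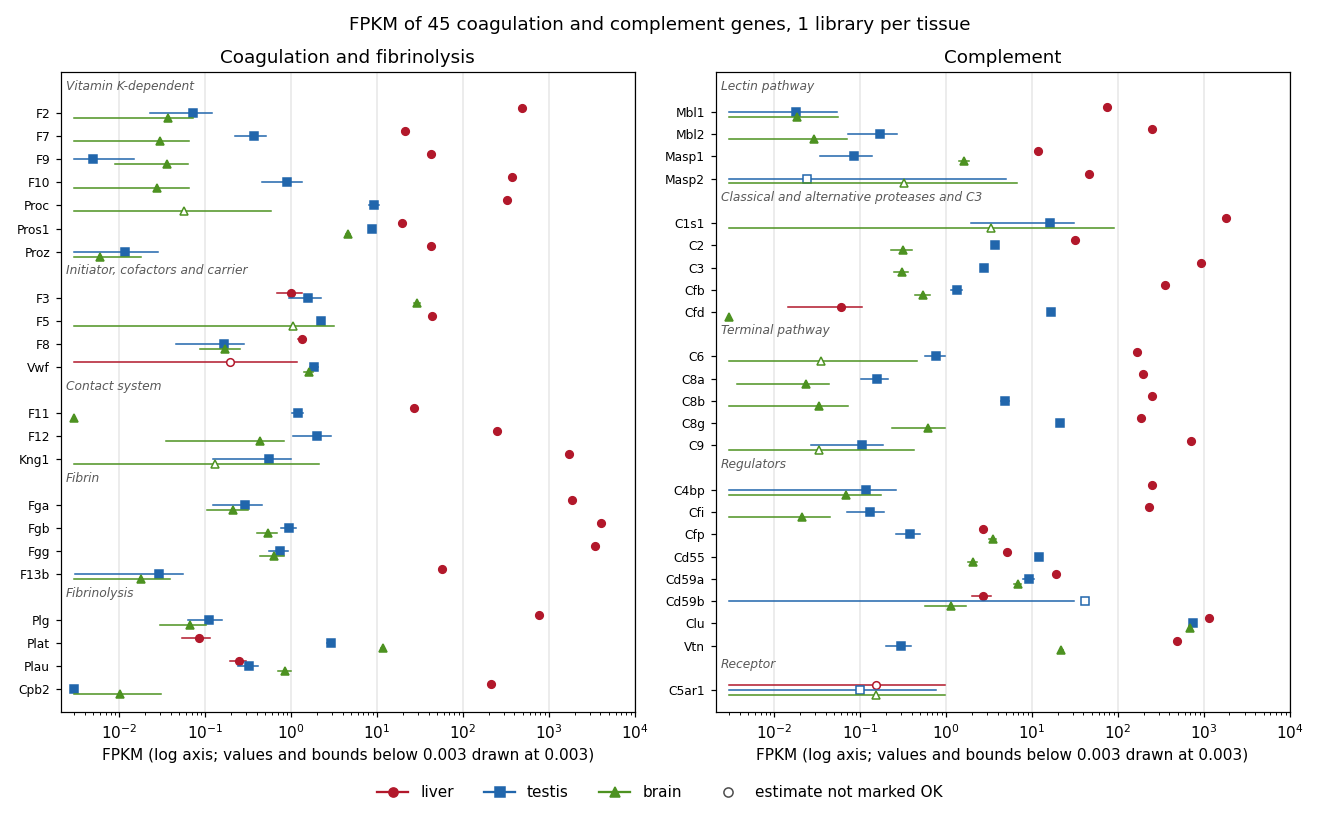
FPKM on a log axis for the 45 members, grouped by role, with liver as circles, testis as squares and brain as triangles, the authors' bounds as lines, and open symbols for estimates not marked OK. The liver symbols of the fibrin genes sit at 57.7 to 4031 FPKM with the other tissues at or under 0.950 FPKM, while the 3 symbols of Clu lie close together between 703 and 1159 FPKM.

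The fibrinogen chains were the most abundant coagulation transcripts. Fgb, the fibrinogen beta chain, stood at 4031 FPKM in liver (4023 to 4039.8), 0.950 FPKM in testis (0.766 to 1.13) and 0.549 FPKM in brain (0.407 to 0.690). Fgg, the gamma chain, had 3501 FPKM in liver (3492 to 3509.8), 0.748 FPKM in testis (0.561 to 0.936) and 0.637 FPKM in brain (0.437 to 0.837). Fga, the alpha chain, had 1888 FPKM in liver (1880.3 to 1896), 0.290 FPKM in testis (0.124 to 0.456) and 0.211 FPKM in brain (0.107 to 0.315). The chains are assembled in equal numbers into fibrinogen, yet per length the Fga level in liver was below those of Fgb and Fgg with the bounds apart. On the log2 scale Fgb differed by 11.01 (10.88 to 11.16 from the bounds) for liver minus testis and by 11.35 (11.22 to 11.49 from the bounds) for liver minus brain. For the trace levels of Fgb the bounds implied 107 fragments in testis and 60 in brain, which need not equal read counts. F13b, the carrier subunit of the fibrin-stabilising factor XIII, stood at 57.7 FPKM in liver (56.9 to 58.5), 0.0294 FPKM in testis (0.00310 to 0.0556) and 0.0182 FPKM in brain (0 to 0.0391). All 4 fibrin genes were called higher in liver against both other tissues, and none differed between testis and brain by the rule.

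The 3 fibrinogen genes are direct neighbours on chromosome 3. On mm9 they lie between positions 82811781 and 82853725, in the order Fgg, Fga and Fgb, with gaps of 11.1 kb and 8.13 kb and no other gene of the tables between them. Fgg and Fga lie on the plus strand and Fgb on the minus strand. Their promoter windows, from 250 bases before to 50 bases after the start of transcription, are shown because these neighbours had the highest levels of the coagulation members; the sequences are those of RefSeq on GRCm38.p6, written 5′ to 3′ along the gene's own strand. Capitals mark GTTAAT, the core letters of sites of the hepatocyte factor HNF1, or its reverse complement, and no other letters are capitalised.
Fga, chr3:83025903-83026202, plus strand: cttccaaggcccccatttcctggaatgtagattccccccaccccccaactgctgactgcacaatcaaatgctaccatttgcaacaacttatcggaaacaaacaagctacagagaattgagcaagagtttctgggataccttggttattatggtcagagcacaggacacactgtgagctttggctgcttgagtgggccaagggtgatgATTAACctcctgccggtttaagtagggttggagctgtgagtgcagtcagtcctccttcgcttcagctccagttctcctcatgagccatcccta
Fgb, chr3:83049814-83050113, minus strand: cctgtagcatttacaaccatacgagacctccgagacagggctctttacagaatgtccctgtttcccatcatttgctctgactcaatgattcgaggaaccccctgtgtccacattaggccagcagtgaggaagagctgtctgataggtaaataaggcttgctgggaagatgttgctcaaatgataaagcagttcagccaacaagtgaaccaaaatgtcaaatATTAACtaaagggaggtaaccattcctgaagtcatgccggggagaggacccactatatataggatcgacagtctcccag
Fgg, chr3:83007474-83007773, plus strand: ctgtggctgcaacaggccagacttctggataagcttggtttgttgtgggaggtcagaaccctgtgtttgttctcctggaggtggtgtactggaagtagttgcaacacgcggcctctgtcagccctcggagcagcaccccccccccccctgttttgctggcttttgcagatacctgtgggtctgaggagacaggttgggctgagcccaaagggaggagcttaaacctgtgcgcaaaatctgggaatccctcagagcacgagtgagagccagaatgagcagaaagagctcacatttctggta
The first base of the match lay 43 bases before the start in Fga and 29 bases before it in Fgb, both on the opposite strand, and the Fgg window had none.

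Among the vitamin K-dependent factors, which carry carboxylated glutamates that bind calcium and phospholipid, 6 of 7 were called higher in liver against each other tissue. F2, prothrombin, had 493 FPKM in liver (473 to 513), 0.0720 FPKM in testis (0.0228 to 0.121) and 0.0371 FPKM in brain (0.00212 to 0.0721). F10, the protease that activates prothrombin, had 373 FPKM in liver (366 to 379), 0.898 FPKM in testis (0.464 to 1.33) and 0.0277 FPKM in brain (0 to 0.0644). F7, the plasma partner of tissue factor, had 21.2 FPKM in liver (19.8 to 22.6), 0.370 FPKM in testis (0.222 to 0.517) and 0.0298 FPKM in brain (0 to 0.0659). Liver thus held each of these proteases at 21.2 FPKM or more, while the lower bounds in brain were at or close to 0. F9, the haemophilia B factor, stood at 42.3 FPKM in liver (41.7 to 43.0), 0.00505 FPKM in testis (0 to 0.0151) and 0.0364 FPKM in brain (0.00888 to 0.0639). For Proz, a cofactor of the inhibitor of activated factor X, the levels were 42.2 FPKM in liver (40.8 to 43.7), 0.0116 FPKM in testis (0 to 0.0281) and 0.00600 FPKM in brain (0 to 0.0180). In testis the bounds of F9 and Proz implied 1 and 2 fragments, so these levels were at the edge of what the library could measure. F7, F10 and Proz adjoin each other on chromosome 8, at 13026034 to 13075006 of mm9, with gaps of 1.5 kb and 4.23 kb and no other gene of the tables in between.

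Proc and Pros1, both anticoagulants, had the highest testis levels of this family. Proc, protein C, which as an activated protease inactivates factors V and VIII, stood at 331 FPKM in liver (319 to 343), 9.33 FPKM in testis (8.05 to 10.6) and 0.0578 FPKM in brain (0 to 0.587), the brain estimate being marked as low data. Its testis level was called higher than its brain level, by 3.29 (2.51 to 3.54 from the bounds) on the log2 scale. Pros1, protein S, the cofactor of protein C and also a ligand of the TAM receptors that Sertoli cells use to engulf dying germ cells, had 19.7 FPKM in liver (19.4 to 20.1), 8.87 FPKM in testis (8.49 to 9.25) and 4.64 FPKM in brain (4.36 to 4.92). Its bounds were apart in every pair of tissues, but its differences of 1.07 for liver minus testis and 1.88 for liver minus brain stayed under 4-fold. The second of these passed the rule with median-ratio scaling, at 2.56, and with pseudocounts of 0.1 and 0.01, at 2.07 and 2.09. Pros1 was among 8 members at 1 FPKM or more in all 3 tissues, with F3, F5, C1s1, Cd55, Cd59a, Cd59b and Clu. Of these, F5 and C1s1 in brain had low-data estimates and Cd59b in testis a failed one. The lower bounds of F3 were under 1 FPKM, at 0.681 FPKM in liver and 0.941 FPKM in testis, and that of Cd59b in brain was 0.572 FPKM.

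The initiator, the cofactors and the carrier were the least liver-centred coagulation group, with 1 of 4 called higher in liver. F3, tissue factor, stood at 1.01 FPKM in liver (0.681 to 1.34), 1.60 FPKM in testis (0.941 to 2.26) and 29.4 FPKM in brain (26.8 to 32.0). It was called lower in liver than in brain, by -3.92 (-4.30 to -3.57 from the bounds), and lower in testis than in brain, by -3.55 (-4.09 to -3.10 from the bounds). The bounds of liver and testis overlapped, and their order turned round with median-ratio scaling. Astrocytes are a known source of tissue factor in brain, and the astrocyte markers Gfap, Slc1a2 and Aqp4 together stood at 31.8 FPKM in liver, 26.1 FPKM in testis and 216 FPKM in brain. Nearly all of the liver and testis sums was Slc1a2, at 31.4 FPKM in liver, an estimate marked as failed, and 25.9 FPKM in testis. Gfap, the marker most particular to astrocytes, had 0.0605 FPKM in liver, 0.214 FPKM in testis and 55.3 FPKM in brain, and Aqp4 had 0.331 FPKM in liver and 13.3 FPKM in brain and is listed at 0 in testis. All 3 of these markers were called lower in testis than in brain and 2 of 3 lower in liver than in brain, and their part in the F3 difference was not tested. The promoter window of F3, with the reverse complement of TATAAA in capitals at 43 bases after the start, was:
F3, chr3:121723287-121723586, plus strand: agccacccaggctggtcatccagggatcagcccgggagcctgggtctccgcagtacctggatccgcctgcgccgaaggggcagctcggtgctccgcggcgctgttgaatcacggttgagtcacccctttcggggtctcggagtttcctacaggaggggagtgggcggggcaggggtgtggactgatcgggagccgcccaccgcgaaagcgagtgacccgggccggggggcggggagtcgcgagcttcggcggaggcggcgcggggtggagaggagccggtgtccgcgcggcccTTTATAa

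F5, the cofactor of factor Xa, stood at 43.8 FPKM in liver (43.4 to 44.2), 2.23 FPKM in testis (2.11 to 2.36) and 1.06 FPKM in brain (0 to 3.21), with the brain estimate marked as low data, and was called higher in liver against both. F8, the cofactor that is lacking in haemophilia A and is made by sinusoidal endothelium rather than hepatocytes, had 1.36 FPKM in liver (1.20 to 1.51), 0.164 FPKM in testis (0.0458 to 0.283) and 0.171 FPKM in brain (0.0873 to 0.254). Its differences of 1.02 and 1.01 from testis and brain were under the 4-fold limit. With a pseudocount of 0.1 they became 2.46 and 2.43, and with 0.01 they became 2.97 and 2.92, which the rule called higher in liver. Vwf, the platelet-tethering carrier of factor VIII, is made by endothelium and megakaryocytes and had 0.194 FPKM in liver (0 to 1.18), 1.87 FPKM in testis (1.65 to 2.09) and 1.61 FPKM in brain (1.42 to 1.79), its liver estimate being marked as low data with bounds that covered less than 1 implied fragment. Its differences of -1.26 for liver minus testis and -1.13 for liver minus brain were under 4-fold, and with a pseudocount of 0.1 they became -2.74 and -2.54 and were called. Other endothelial genes had another order of tissues, since Pecam1, Cdh5, Tek, Kdr and Tie1 summed to 16.1 FPKM in liver, 3.10 FPKM in testis and 11.6 FPKM in brain, and their part in the Vwf levels was not tested. The platelet and megakaryocyte markers Pf4, Ppbp, Gp1ba, Gp9 and Itga2b were low throughout, with Pf4, the highest, at 0.390 FPKM in liver, 1.52 FPKM in testis and 0.835 FPKM in brain.

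All 3 contact-system members analysed were called higher in liver. Kng1, kininogen, the precursor of bradykinin and the docking protein of factor XI and prekallikrein, stood at 1733 FPKM in liver (1715 to 1750.5), 0.560 FPKM in testis (0.123 to 0.997) and 0.133 FPKM in brain (0 to 2.15), the brain estimate being marked as low data. In Kng1, 9.53% of the read-length windows of its transcripts were shared with its neighbouring copy Kng2, whose own liver level was 279 FPKM, so the split of reads between them is uncertain. F12, the factor that autoactivates on negatively charged surfaces, had 254 FPKM in liver (247 to 260.4), 1.99 FPKM in testis (1.06 to 2.92) and 0.436 FPKM in brain (0.0351 to 0.837). F11, which activates factor IX, had 27.2 FPKM in liver (26.6 to 27.7), 1.20 FPKM in testis (1.02 to 1.37) and 0 FPKM in brain (0 to 0), and is listed at 0 in brain. Its testis level of 1.20 FPKM rested on 191 implied fragments and had its lower bound above 1 FPKM.

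The fibrinolysis genes fell into a liver pair and a pair of low or non-hepatic activators. Plg, plasminogen, stood at 770.2 FPKM in liver (768 to 773), 0.110 FPKM in testis (0.0632 to 0.157) and 0.0670 FPKM in brain (0.0298 to 0.104), with 9.54% of its read-length windows shared with Slc22a3. Cpb2, the carboxypeptidase that trims fibrin and slows its lysis, had 215 FPKM in liver (213 to 217), 0 FPKM in testis (0 to 0) and 0.0104 FPKM in brain (0 to 0.0312), and is listed at 0 in testis. Both zymogens were called higher in liver against both other tissues. Plat, tissue plasminogen activator, which in brain is also made by neurons, had 0.0845 FPKM in liver (0.0546 to 0.114), 2.91 FPKM in testis (2.66 to 3.17) and 11.7 FPKM in brain (11.2 to 12.3). The order brain, testis, liver held with the bounds apart at each step. It was called lower in liver than in brain, by -3.55 (-3.65 to -3.46 from the bounds), while its differences of -1.85 for liver minus testis and -1.70 for testis minus brain were under 4-fold. Both limits depended on the setting. With pseudocounts of 0.1 and 0.01 the liver minus testis difference became -4.03 and -4.95 and was called, and the testis minus brain difference was called at -2.01 with the pseudocount of 0.01 and at -2.19 with scaling to the FPKM sum. Plau, urokinase, had 0.250 FPKM in liver (0.196 to 0.304), 0.328 FPKM in testis (0.240 to 0.417) and 0.849 FPKM in brain (0.704 to 0.993), the same order of tissues in a narrower range. The liver and testis bounds of Plau overlapped, and their order turned round with median-ratio scaling. The substrate plasminogen and its activators were thus most abundant in different organs.

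In the lectin pathway 4 of 4 members were called higher in liver against both. Mbl2, a mannose-binding lectin that recognises microbial sugars, stood at 250.2 FPKM in liver (248 to 253), 0.171 FPKM in testis (0.0724 to 0.270) and 0.0294 FPKM in brain (0 to 0.0710). Its sister Mbl1 had 74.4 FPKM in liver (72.8 to 76.0), 0.0178 FPKM in testis (0 to 0.0535) and 0.0184 FPKM in brain (0 to 0.0551), from 1 implied fragment each in testis and brain. Masp2, the protease that cleaves C4 and C2 once the lectin binds, had 46.3 FPKM in liver (45.1 to 47.4), 0.0241 FPKM in testis (0 to 5.01) and 0.324 FPKM in brain (0 to 6.76), with the testis estimate marked as low data and the brain estimate as failed. Masp2 overlaps Tardbp on the opposite strand by 3118 bp, and 51.3% of its read-length windows were shared with Tardbp, which was expressed at 42.2 FPKM in liver, 64.1 FPKM in testis and 49.8 FPKM in brain. Masp1, the protease that activates Masp2, was the member of this pathway with the clearest level outside liver, at 11.8 FPKM in liver (11.4 to 12.2), 0.0857 FPKM in testis (0.0342 to 0.137) and 1.64 FPKM in brain (1.44 to 1.85). Its brain level rested on 251 implied fragments and was above its testis level with the bounds apart, a difference of -1.28 for testis minus brain that passed the rule with a pseudocount of 0.1, at -3.23. The liver minus brain difference of 2.28 was near the 4-fold limit and came under it, at 1.72, when the libraries were scaled to the FPKM sum.

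Around C3, 4 of 5 members were called higher in liver. C3, on which the complement routes converge, stood at 939.8 FPKM in liver (938 to 942), 2.76 FPKM in testis (2.59 to 2.93) and 0.307 FPKM in brain (0.249 to 0.364). C1s1, the classical-pathway protease that cleaves C4 and C2, had the highest complement level in liver, with 1825 FPKM in liver (1706 to 1943), 16.3 FPKM in testis (1.94 to 30.7) and 3.40 FPKM in brain (0 to 91.7), the brain estimate being marked as low data. The wide bounds of C1s1 lay in a locus that overlaps the copy C1s2 by 12415 bp, with 24.4% of its read-length windows shared with other genes. Cfb, the alternative-pathway protease, had 355 FPKM in liver (352 to 358), 1.35 FPKM in testis (1.14 to 1.56) and 0.549 FPKM in brain (0.438 to 0.661). C2, its classical-pathway counterpart, had 32.2 FPKM in liver (31.6 to 32.8), 3.75 FPKM in testis (3.45 to 4.06) and 0.316 FPKM in brain (0.228 to 0.405). Cfb and C2 overlap by 6107 bp on the same strand of chromosome 17, and 69.7% and 39.1% of their windows were shared with other transcripts, mainly a readthrough gene, so reads of these transcripts may be split between them. Among the 32 members called higher in liver, C2 had the highest testis share, at 11.7% of its liver level.

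Cfd, factor D or adipsin, which cleaves factor B, was the exception and the only member restricted to testis. It had 0.0601 FPKM in liver (0.0147 to 0.106), 16.8 FPKM in testis (15.7 to 17.9) and 0 FPKM in brain (0 to 0), and is listed at 0 in brain. The differences were -4.07 (-4.22 to -3.92 from the bounds) for liver minus testis and 4.16 (4.06 to 4.24 from the bounds) for testis minus brain, and the testis level rested on 943 implied fragments. Adipsin is best known from adipocytes. The 6 adipocyte genes looked at were also highest in testis, as were 47.6% of the genes listed above 0 in any library. The 6 genes Adipoq, Plin1, Lep, Retn, Cidec and Fabp4, chosen after the values were seen, summed to 22.0 FPKM in liver, 71.7 FPKM in testis and 0.589 FPKM in brain. Most of each sum was Fabp4, at 21.9 FPKM in liver, 51.1 FPKM in testis and 0.490 FPKM in brain. The liver minus testis difference of Fabp4, -1.19, was not called. Adipoq, the fat-cell hormone adiponectin, is listed at 0 in liver, against 12.6 FPKM in testis and 0.0121 FPKM in brain. Of the 6, 2 were called lower in liver than in testis and 3 higher in testis than in brain. The same rule called 15.2% and 11% of all genes. Of the 6, 4 are listed at 0 in liver and 3 in brain, and their part in the Cfd level was not tested. Its promoter window, shown because its level went against that of the other proteases, held none of the motifs searched:
Cfd, chr10:79890603-79890902, plus strand: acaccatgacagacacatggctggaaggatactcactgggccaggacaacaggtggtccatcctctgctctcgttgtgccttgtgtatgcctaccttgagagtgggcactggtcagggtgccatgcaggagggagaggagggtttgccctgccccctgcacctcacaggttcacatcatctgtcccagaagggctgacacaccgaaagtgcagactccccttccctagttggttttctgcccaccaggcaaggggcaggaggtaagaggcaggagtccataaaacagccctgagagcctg

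All 5 terminal-pathway genes were called higher in liver against both other tissues. C9, which polymerises into the pore, stood at 709.8 FPKM in liver (704 to 716), 0.105 FPKM in testis (0.0270 to 0.184) and 0.0333 FPKM in brain (0 to 0.431), the brain estimate being marked as low data. C6, which joins the complex early, had 169 FPKM in liver (165 to 173), 0.770 FPKM in testis (0.570 to 0.969) and 0.0350 FPKM in brain (0 to 0.465), with the same mark in brain. C8a, the C8 alpha chain, had 199 FPKM in liver (189 to 209.5), 0.159 FPKM in testis (0.102 to 0.215) and 0.0238 FPKM in brain (0.00369 to 0.0438). The other C8 chains stood higher in testis than C8a. C8b, the beta chain, had 253 FPKM in liver (249.7 to 256), 4.92 FPKM in testis (4.37 to 5.47) and 0.0334 FPKM in brain (0 to 0.0729). C8g, the gamma chain, a lipocalin unrelated in sequence to the others, had 189 FPKM in liver (185 to 193), 21.5 FPKM in testis (19.9 to 23.1) and 0.615 FPKM in brain (0.239 to 0.992). In liver the 3 chains, which form 1 complex, lay between 189 and 253 FPKM, while in testis they were spread from 0.159 to 21.5 FPKM with the bounds apart. C8b and C8g were called higher in testis than in brain, by 2.52 (2.32 to 2.69 from the bounds) and 3.80 (3.39 to 4.28 from the bounds). C8g overlaps Fbxw5 on the opposite strand by 970 bp, and Fbxw5 stood at 5.94 FPKM in liver, 120 FPKM in testis and 20.8 FPKM in brain. Whether the authors' counting used strand is not given in the sources used here. None of the 1800 read-length windows of C8g transcripts was shared with another gene. These windows come from GENCODE M21 transcripts and not from the mm9 loci that overlap, so they cannot show whether Fbxw5 reads were counted for C8g. C8a and C8b lie side by side on chromosome 4, at 104438922 to 104549003 of mm9, on opposite strands with 11.1 kb between their ends. Their promoter windows are shown since these neighbours differed in testis; capitals mark GTTAAT or its reverse complement, and in C8b also the reverse complement of CCAAT.
C8a, chr4:104876349-104876648, minus strand: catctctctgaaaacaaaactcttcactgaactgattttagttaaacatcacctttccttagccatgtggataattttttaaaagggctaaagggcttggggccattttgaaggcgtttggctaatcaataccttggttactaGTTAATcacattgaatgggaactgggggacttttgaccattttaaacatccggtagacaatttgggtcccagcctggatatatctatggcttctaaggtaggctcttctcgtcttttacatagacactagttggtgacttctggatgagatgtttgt
C8b, chr4:104766067-104766366, plus strand: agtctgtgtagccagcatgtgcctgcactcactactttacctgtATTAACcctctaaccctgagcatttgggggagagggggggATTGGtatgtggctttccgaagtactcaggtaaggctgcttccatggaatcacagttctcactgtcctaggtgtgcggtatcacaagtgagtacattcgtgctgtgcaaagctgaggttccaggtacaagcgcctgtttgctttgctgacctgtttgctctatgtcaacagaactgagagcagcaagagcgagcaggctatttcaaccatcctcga
GTTAAT began 107 bases before the start of C8a, and in C8b its reverse complement lay 206 bases and that of CCAAT 166 bases before the start.

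The regulators were the most varied group, with 3 of 8 called higher in liver against both. C4bp, which binds C4b and helps factor I to degrade it, stood at 254 FPKM in liver (249 to 259), 0.117 FPKM in testis (0 to 0.260) and 0.0683 FPKM in brain (0 to 0.175). Cfi, factor I, had 229 FPKM in liver (227 to 231), 0.130 FPKM in testis (0.0702 to 0.189) and 0.0211 FPKM in brain (0 to 0.0455). Both of these plasma inhibitors were restricted to liver. Vtn, vitronectin, which blocks insertion of the terminal complex and also carries an adhesion site, had 487 FPKM in liver (484 to 489.7), 0.299 FPKM in testis (0.199 to 0.398) and 22.2 FPKM in brain (21.3 to 23.0). Liver differed from testis by 8.55 and from brain by 4.40, and testis was called lower than brain by -4.16 (-4.32 to -3.99 from the bounds). Vtn and F3 were the members called lower in testis than in brain.

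The membrane-bound regulators stood at 1 FPKM or more in every tissue. Cd55, decay-accelerating factor, which dismantles C3 convertases, had 5.11 FPKM in liver (4.85 to 5.38), 12.2 FPKM in testis (11.7 to 12.8) and 2.07 FPKM in brain (1.83 to 2.31). Its testis level was called higher than its brain level, by 2.11 (1.94 to 2.28 from the bounds), a call that was lost at 1.69 when the libraries were scaled to the FPKM sum. The liver minus testis difference was -1.11. Of its read-length windows, 6.05% were shared with other genes, mainly its copy Cd55b. Cd59a, which stops C9 from forming the pore, had 19.2 FPKM in liver (18.2 to 20.3), 9.17 FPKM in testis (7.85 to 10.5) and 6.86 FPKM in brain (6.23 to 7.50). Its duplicate Cd59b, which directly precedes it on chromosome 2, is listed at 2.70 FPKM in liver, 41.6 FPKM in testis and 1.14 FPKM in brain. The testis estimate of Cd59b was marked as failed and its upper bound of 31.3 FPKM lies below the value itself. With bounds that overlap those of liver and brain, its differences of -3.53 for liver minus testis and 4.32 for testis minus brain were not called, and 10.5% of its read-length windows were shared with other genes.

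Clu, clusterin, a chaperone that keeps terminal complexes soluble, was the most evenly expressed of the 8 members at 1 FPKM or more in all 3 tissues. It had 1159 FPKM in liver (1148 to 1169), 749.9 FPKM in testis (739 to 761) and 703 FPKM in brain (692 to 715), and the differences were 0.63, 0.72 and 0.09 for liver minus testis, liver minus brain and testis minus brain. The testis and brain bounds were apart, and scaling to the FPKM sum turned the sign against brain, to -0.01 for liver and -0.46 for testis. Among protein-coding genes Clu ranked 63rd by FPKM in liver, 81st in testis and 35th in brain. Cfp, properdin, the alternative-pathway stabiliser, which is made by myeloid cells rather than hepatocytes, had 2.74 FPKM in liver (2.52 to 2.95), 0.384 FPKM in testis (0.267 to 0.501) and 3.50 FPKM in brain (3.15 to 3.86). It was the member with the order brain, liver, testis, but with median-ratio scaling its liver minus brain difference of -0.27 turned to 0.30. Its liver minus testis difference of 1.43 and its testis minus brain difference of -1.70 were under 4-fold, and with a pseudocount of 0.1 they became 2.55 and -2.90 and were called. The second was also called under sum scaling, at -2.08. The neutrophil markers S100a8, S100a9, Ngp, Elane and Retnlg summed to 3.10 FPKM in liver, 0.0126 FPKM in testis and 8.58 FPKM in brain, with 4 of 5 listed at 0 in testis. The 7 macrophage, Kupffer cell and microglia markers had another order, with sums of 38.6 FPKM in liver, 382 FPKM in testis and 29.8 FPKM in brain. A single gene gave 375 FPKM of that testis sum. Brain was highest for 4 of the 7, liver for 2 and testis for 1. The part of these cells in the Cfp levels was not tested. C5ar1, an anaphylatoxin receptor of myeloid cells, had 0.155 FPKM in liver (0 to 0.975), 0.0997 FPKM in testis (0 to 0.773) and 0.154 FPKM in brain (0 to 0.992), all 3 marked as low data with overlapping bounds.

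Summed over the 45 members, FPKM came to 21059 in liver, 917 in testis and 799 in brain. That was 3.43% of the FPKM of protein-coding genes in liver, 0.161% in testis and 0.231% in brain. The fibrin genes made up 45% of the liver sum, with Fgb at 19.1%, Fgg at 16.6% and Fga at 8.97%, while Clu made up 81.8% of the testis sum and 88.1% of the brain sum. Without Clu the sums were 19901 FPKM in liver, 167 FPKM in testis and 95.1 FPKM in brain. The regulators, Clu included, accounted for 10.2% of the members' FPKM in liver, 88.7% in testis and 92.6% in brain.

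**Figure D3:**
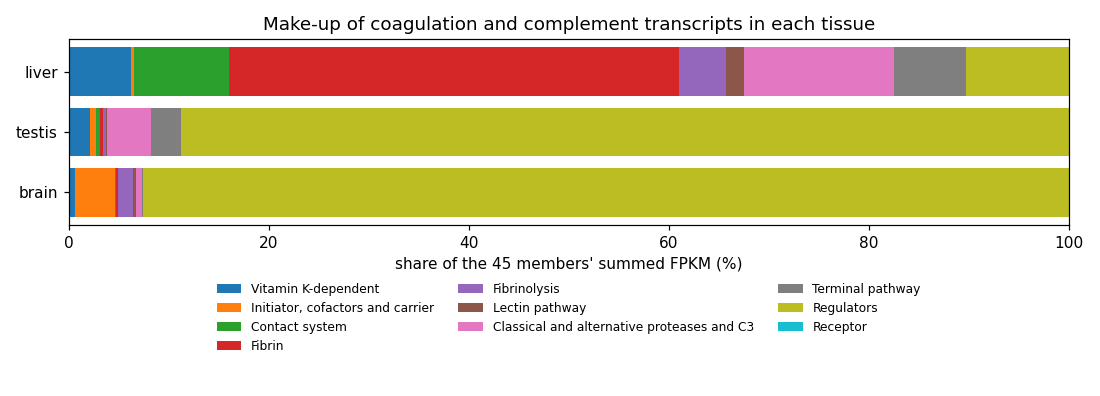
Stacked bars give each role's share of the members' summed FPKM (x axis, percent) in liver, testis and brain. Fibrin genes fill 45% of the liver bar, and regulators fill 88.7% of the testis bar and 92.6% of the brain bar.

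Outside liver, most members were at traces, and testis was more often above brain than below it. Of the 37 members highest in liver, 29 had a higher FPKM in testis than in brain, 18 of them with the bounds apart, and 2, Masp1 and Vtn, had the reverse with the bounds apart. These were 78.4%, 48.6% and 5.41% of the 37, beside 33.7%, 16.4% and 33.6% of all 3756 genes highest in liver. For the other 17 members the bounds overlapped. The counts depend on scaling: with scaling to the FPKM sum, Fga, Fgg, Cd59a and Clu turned to a higher level in brain than in testis. Of these, Cd59a and Clu had been above brain in testis with the bounds apart. By the 4-fold rule 5 members were called higher in testis than in brain, Proc, Cfd, C8b, C8g and Cd55, and 2 lower, F3 and Vtn. These were 11.1% and 4.44% of the members, where the rule called 11% and 7.19% of all genes and 14.2% and 10.4% of protein-coding genes, so the share higher in testis was near that of all genes. With pseudocounts of 0.1 and 0.01 the rule called 10 and 15 members higher and 4 and 5 lower. The median testis minus brain difference of the members was 0.15, against 0.00 over all genes. Among the 32 members called higher in liver, the testis level was a median of 0.0649% of the liver level, from 0% for Cpb2 to 11.7% for C2, and 7 exceeded 1%. The brain level was a median of 0.0195% of the liver level, from 0% for F11 to 13.9% for Masp1, and 3 exceeded 1%. For comparison, the hepatocyte markers Alb, Apoa1, Ttr, Cps1 and Tat had a median of 0.0161% of their liver level in testis, with a range of 0.00353% to 0.0250%, and 0.0217% in brain, where Ttr, a choroid plexus gene as well, reached 25.8%. The median number of implied fragments behind the 32 levels was 18.7 in testis and 2.93 in brain.

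**Figure D4:**
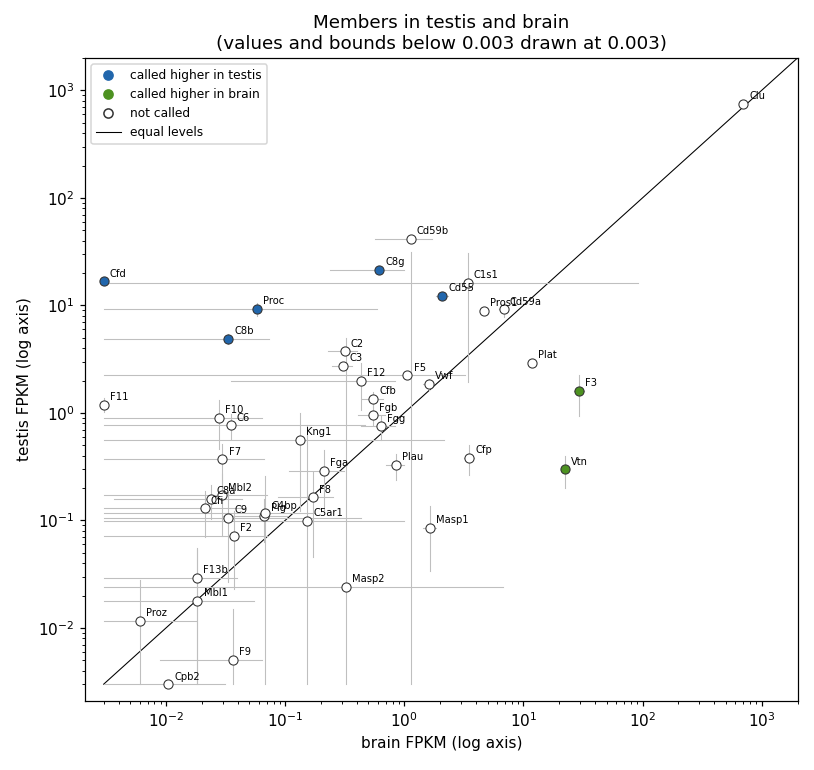
Each point is a member with its brain FPKM (x axis) and testis FPKM (y axis), both on log axes, with the authors' bounds as grey lines and equal levels on the diagonal. Proc, Cfd, C8b, C8g and Cd55 are marked as called higher in testis and F3 and Vtn as called higher in brain, while Clu sits on the diagonal at 749.9 FPKM in testis and 703 FPKM in brain and many members lie under 1 FPKM on both axes.

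In all, the promoter table held 35 of the 46 listed genes in 37 windows. GTTAAT, read on both strands, was found in 11 of the 35, or 31.4%, against 8.24% of all 27025 genes in the table. It was found in 6 of the 13 liver-restricted members with a window, or 46.2%, and in 5 of the 22 others, or 22.7%. The 6 were F2, Proz, Fga, F13b, C8a and C4bp. Not all matches lay upstream, since that of F2 began 8 bases and that of Cd55 14 bases after the start. TATAAA was found in 4 of 35 members, or 11.4%, against 15.7% of all genes. CCAAT was found in 9 of 35, or 25.7%, against 41.1% of all genes. TTGCGCAA, a binding sequence of C/EBP factors, was found in 0 of 35 and in 0.207% of all genes. The median GC content was 50% in the windows of members and 52.7% in all windows. These matches describe letters in the windows and were not tested against the levels. Liver-led members also lacked GTTAAT, among them Fgg, C9 and Mbl2.

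The fibrinogen cluster and the cluster of F7, F10 and Proz were called higher in liver as whole groups, and so were the neighbours C8b and C8a and the overlapping Cfb and C2. For Cd59b and Cd59a, with 4.61 kb between them, the failed testis estimate of Cd59b leaves no call to compare.

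Other genes of the pathways were taken from a list of 23 coagulation genes, of which 22 had a row, and 27 complement genes. Of the 22 coagulation genes outside the members, 8 were called higher in liver than in testis and 1 lower, and 7 were called higher in liver than in brain and 1 lower. Their median differences were 1.08 for liver minus testis and 0.46 for liver minus brain. Serpinc1, antithrombin, the main inhibitor of thrombin, had 274 FPKM in liver, 0.105 FPKM in testis and 0.0404 FPKM in brain. Hrg, a histidine-rich plasma glycoprotein, stood at 219 FPKM in liver, 0.0501 FPKM in testis and 0.0172 FPKM in brain. The exceptions were inhibitors. Serpina5, the protein C inhibitor, which in mice is made in the reproductive tract, had 0.273 FPKM in liver and 21.8 FPKM in testis and is listed at 0 in brain, so that both Proc and its inhibitor were called higher in testis than in brain. Serpine2, the thrombin inhibitor protease nexin, had 1.77 FPKM in liver, 0.331 FPKM in testis and 51.5 FPKM in brain, and thus had its highest level in the same organ as F3. Ggcx, the carboxylase that modifies the vitamin K-dependent factors, had 8.08 FPKM in liver, 0.436 FPKM in testis and 2.27 FPKM in brain. Thbd, thrombomodulin, which turns thrombin into the activator of protein C, had 0.606 FPKM in liver, 1.19 FPKM in testis and 2.80 FPKM in brain, with no call.

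Of the 27 complement genes outside the members, 11 were called higher in liver than in testis and 2 lower, and 11 were called higher in liver than in brain and 1 lower. The medians were 1.78 for liver minus testis and 1.15 for liver minus brain. Serping1, the C1 inhibitor, which blocks C1s and the contact proteases, had 192 FPKM in liver, 9.0 FPKM in testis and 3.19 FPKM in brain. C7 and Cd46 were called lower in liver than in testis and higher in testis than in brain. C7, a terminal component, had 0.323 FPKM in liver, 9.82 FPKM in testis and 0.0479 FPKM in brain. Cd46, a membrane cofactor that in mice is confined largely to the testis, had 0.107 FPKM in liver, 5.55 FPKM in testis and 0.433 FPKM in brain. Susd4, a membrane protein that inhibits complement, was the gene called lower in liver and in testis than in brain, with 3.09 FPKM in liver, 0.231 FPKM in testis and 24.6 FPKM in brain. The C1q chains, which macrophages and microglia make, were highest in brain without a call, with C1qb at 13.1 FPKM in liver, 6.07 FPKM in testis and 18.5 FPKM in brain.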

How the data were processed

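Polyadenylated RNA of liver, whole testis and brain was sequenced as strand-specific single-end reads of 76 bases, per the labels' protocols. Reads were handled on mm9 with Cufflinks 2.0.0, Bowtie 0.12.5 and TopHat 1.4.0, per the submitters' processing notes; which annotation and filters were used is not given there. Per the file headers, the authors' tables hold FPKM for each gene, its bounds and a status of the estimate. The level of the bounds is not stated and was taken as 95%. Replicates were not available, so nothing was tested; bounds cover estimation error within a library. The tables hold no counts. Implied fragments were computed by dividing 2 times FPKM by the distance from FPKM to its upper bound and squaring the quotient. The result is a read count only where the bounds hold counting error alone, and it is smaller where they hold other uncertainty.

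The 46 members, their roles and the other lists were chosen with earlier results of these data known. Members were matched by gene identifier through GENCODE M21, which gave no row for Klkb1. Identifiers at several loci, 12 in all, were summed. Differences used a pseudocount of 1, the 4-fold limit and bounds apart over all 36809 genes, in Python 3.11.15 with pandas 2.3.3 and numpy 2.4.6, and were checked on simulated data. Failed and low-data estimates were kept at their listed values, and an exact 0 can be a failed estimate. Read-length windows are all 76-base stretches of a gene's GENCODE M21 transcripts, matched to other genes' transcripts on either strand. Promoter windows are RefSeq's on GRCm38.p6, while gene positions are the tables' on mm9. All members could be named; other genes were named for a high level, for a call other than higher in liver, or beside a member's result. Some genes that this rule gave are not reported here. A planned comparison of protein sequences was not run.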

Additional observations from a re-analysis of the deposited data

How the results depend on the processing

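Of 102 values computed under other settings, 74 stayed close to the reported value and 28 moved. Most of these values are counts, which have no direction, so only the medians could reverse, and 0 did. Among differences of single members that were not called, a scaling turned the sign for F3, Plau, Clu, C5ar1, Cfp, Vwf, Fga, Fgg and Cd59a. The counts of members higher in liver stayed within 1.5 times of 32 under every setting tried. With pseudocounts of 0.1 and 0.01 in place of 1, the median difference became 6.92 and 6.98 for liver minus testis, 8.64 and 9.31 for liver minus brain, and 0.62 and 0.80 for testis minus brain. The members lower in liver than in testis became 3 with either pseudocount, those higher in testis than in brain 10 and 15, and those lower in testis than in brain 4 and 5. At a 2-fold limit these last 3 counts were 4, 9 and 5, at an 8-fold limit 3 members had a call of higher in testis than in brain, and without the bounds 2 were lower in liver than in testis. Scaling to the FPKM sum gave a median of 5.23 for liver minus testis, 4 members lower in testis than in brain and 7 highest in brain. Median-ratio scaling gave medians of 6.01 for liver minus testis and 6.34 for liver minus brain. With estimates marked OK only, the liver minus testis median was 5.83, and with members at 1 FPKM or more in any library the liver minus brain median was 6.21. With limits of 1 and 0.1 FPKM, 6 members were restricted to liver. At 5 FPKM, 9 members were detected in testis and 5 in brain. Where the highest level had to have its bounds apart from both others, 2 members were highest in testis. The cause of these shifts was not tested. No paired analysis was possible because each tissue has 1 library. Depth limits the traces in testis and brain, where 8 and 20 members had bounds reaching 0.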
